A study of Arabidopsis thaliana with 6 samples.

Results

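The genes described here are 10 clock genes of Arabidopsis thaliana: ELF3, ELF4, LUX and BOA, which encode the evening complex and a close relative of its DNA-binding subunit, GI, the ZTL family (ZTL, FKF1 and LKP2), and LNK1 and LNK2. They were taken as a known group of clock genes and found by locus identifier, and make up 10 of the 27947 genes and 22 of the 45666 transcripts of the deposited table. RNA was sequenced from 3 libraries of the cdc5 mutant and from 3 libraries of the wild type Col-0, all labelled as rosette leaves. The mutated gene, CDC5, encodes a MYB-related member of the MOS4-associated complex, which works with the spliceosome. The labels name no other allele or agent, give neither the age of the plants nor the hour of harvest, and do not say whether each library was made from its own plants. The numbers in the mutant's titles were read as replicate numbers, although they could also be allele names.

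In the plant clock, the MYB-related repressors CCA1 and LHY act in the morning, and the evening complex represses its targets, among them PRR genes, LUX itself and the growth regulators PIF4 and PIF5, in the evening and at night. ELF3 is the scaffold of this complex, ELF4 is a small protein that acts with ELF3, and LUX binds DNA. GI binds the blue-light photoreceptors of the ZTL family, F-box proteins that mark clock and flowering regulators for degradation, and LNK1 and LNK2 are transcriptional coactivators that act with RVE8 on evening-phased genes. Transcripts of several of these genes are known to cycle strongly over the day.

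LUX and BOA, the 2 DNA-binding members of the evening complex group, fell in cdc5, and LUX was the firmer of the pair. ELF3, ELF4, GI, ZTL, LKP2, LNK1 and LNK2 did not pass the test at gene level. FKF1 was too low for the main comparison, and its libraries lay lower in cdc5 than in Col-0. Within LNK1, the transcript that lacks the exon with the upstream start codon took a larger share in cdc5.

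The estimated depth was 20.0 to 25.6 M fragments in cdc5 and 19.2 to 23.8 M in Col-0. Values are FPKM, fragments scaled by transcript length and by library size, and a gene's level is the sum over its transcripts. The CDC5 transcript itself (AT1G09770) had 21.8, 21.3 and 21.0 FPKM in the cdc5 libraries, against 38.2, 37.0 and 36.1 FPKM in the Col-0 libraries, so it was lower but not absent in the mutant. All 5 mature leaf markers were abundant, with summed levels of 9432 to 9704 FPKM in cdc5 and 8097 to 9113 FPKM in Col-0. RBCS1A, RCA and LHCB2.1 rose in cdc5 (limma adjusted p = 0.0087, 0.015 and 0.030), and PSBO1 fell (limma adjusted p = 0.0045). RCA and LHCB2.1 lost their calls under median scaling, and PSBO1 under cyclic loess scaling and an adjustment for length and GC content. For the markers of every tissue here, the background was 33.3% of all tested genes called higher and 22.4% lower. Floral identity genes were abundant too, which the tissue label does not describe: all 6 passed the filter, and their summed level was 511 to 521 FPKM in cdc5 and 625 to 671 FPKM in Col-0. Of these, AP3, PI and AG fell in cdc5 and none rose, where 22.4% of all tested genes were called lower and 33.3% higher. AG no longer passed under cyclic loess scaling. Under median scaling AP1 and SEP3 were called lower too. LFY was low, at means of 2.51 FPKM in cdc5 and 2.02 FPKM in Col-0, and was called higher under an adjustment for length and GC content. Among shoot meristem markers, STM rose to 42.2 FPKM in cdc5, against 35.0 FPKM in Col-0 (limma adjusted p = 7.1e-04). WUS fell to 15.2 FPKM in cdc5, against 19.0 FPKM in Col-0 (limma adjusted p = 0.0071). The third, CLV3, was almost absent, at means of 0.0215 FPKM in cdc5 and 0.0813 FPKM in Col-0. Of the root markers, IRT1 had means of 11.6 FPKM in cdc5 and 12.3 FPKM in Col-0. COBL9 had 2.58 and 2.95 FPKM, neither was called, and EXPA7 had no value. IRT1 was called lower under cyclic loess scaling (limma adjusted p = 0.026) and under median scaling (limma adjusted p = 0.048). The part of these markers in the results below was not tested. In such bulk RNA, fewer cells of a type and less RNA per cell cannot be told apart.

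The comparison used limma on log2(FPKM + 1), a scale on which changes of low genes are understated, for genes that averaged 1 FPKM or more, and a gene was called at a Benjamini-Hochberg adjusted p under 0.05. Of the 10 genes, 9 passed this filter. Of these, 2 were called lower in cdc5, where 22.4% of all 19778 tested genes were. None was called higher, where 33.3% of all tested genes were, and ZTL and LNK1 were higher at an unadjusted p under 0.05. The median log2 fold change was -0.04 over the 9 tested genes and 0.06 over all tested genes. The genotypes had no overlapping libraries for 4 of the 9 genes (LUX, BOA, ZTL and LNK1), while 63.6% of all tested genes had no overlap. The count of calls among the 9 genes was thus near or below the background, and the genes are described singly.

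**Figure D1:**
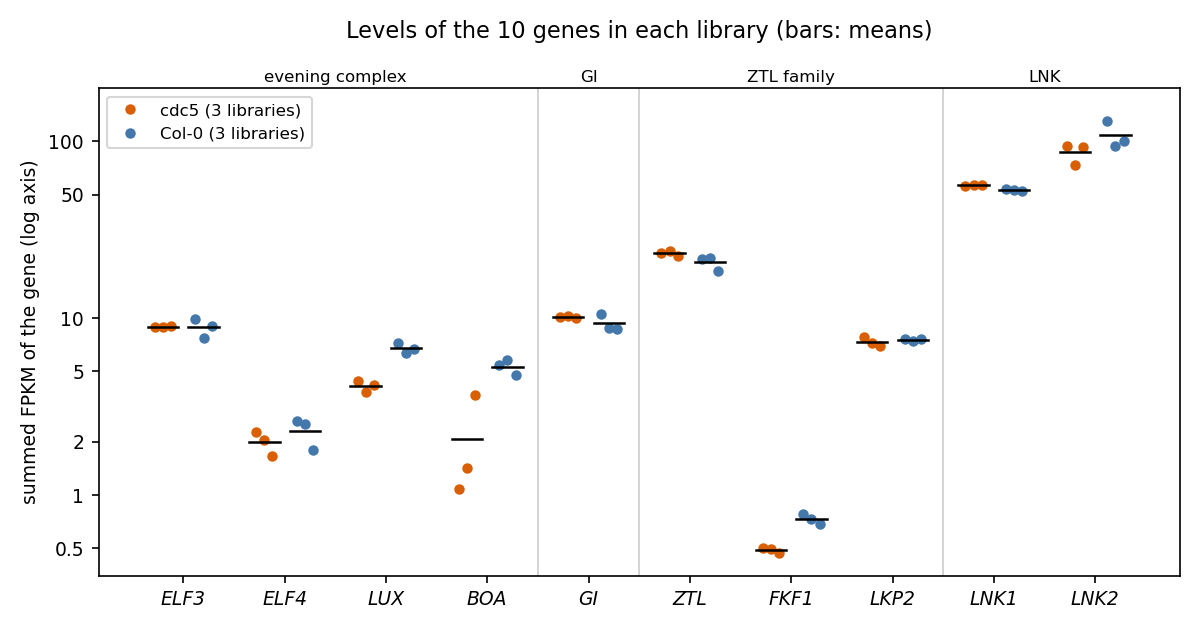
Summed FPKM of each of the 10 genes on a log axis, by library, with cdc5 (orange) left of Col-0 (blue) and group means as bars. For LUX, BOA and FKF1 the 3 cdc5 libraries lie below the 3 Col-0 libraries, and BOA has 1 cdc5 library at 3.69 FPKM, far above the other two.

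By mean over all 6 libraries, the levels ran from LNK2 at 97.7 FPKM through LNK1 at 54.9, ZTL at 22.0, GI at 9.78, ELF3 at 8.93, LKP2 at 7.46, LUX at 5.46, BOA at 3.69 and ELF4 at 2.16 to FKF1 at 0.611 FPKM. FPKM are per length, so these levels can be set against each other. The ranges over the libraries did not overlap between LNK2 and LNK1, LNK1 and ZTL, ZTL and GI, or ELF4 and FKF1. Neighbours from GI down to ELF4 overlapped in these ranges, which pool both genotypes. Within every single library, ELF3 was above LKP2, LKP2 above LUX and LUX above BOA. The order of GI and ELF3, and that of BOA and ELF4, changed between libraries.

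LUX (AT3G46640, chromosome 3, 17183042 to 17186959, plus strand) encodes the MYB-type DNA-binding subunit of the evening complex. Its level was 4.44, 3.85 and 4.18 FPKM in the cdc5 libraries, against 7.21, 6.37 and 6.73 FPKM in the Col-0 libraries. Every cdc5 library was lower than every Col-0 library, and the spread within each genotype was small beside the gap. The mean of 4.16 ± 0.298 FPKM in cdc5 was 61.4% of the 6.77 ± 0.423 FPKM in Col-0 (SD, n = 3 each). On the log2 scale this was a fold change of -0.59 (SE 0.079, limma adjusted p = 2.8e-04). LUX passed the test under each of the 15 alternatives, with values from -0.79 to -0.55.

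The table lists 3 LUX transcripts. AT3G46640.1 is a single exon, AT3G46640.2 removes a 628-base intron that lies after the stop codon and runs on to a more distant 3′ end, and both share a frame of 323 codons. AT3G46640.3 uses a donor inside the last part of that frame and removes 767 bases, which gives a frame of 324 codons with another end. Its second intron, of 134 bases, lies after the stop codon. The donors of AT3G46640.2 and AT3G46640.3 and their common acceptor are shown because AT3G46640.2 fell and AT3G46640.3 had its higher values in cdc5. They were read from the TAIR10.1 genome (RefSeq), plus strand, at chr3:17184251-17184280, chr3:17184112-17184141 and chr3:17184869-17184898, with the first or last bases of the intron in capitals.
AT3G46640.2 donor: gaagagatagGTgagcttgttattgctcgt
AT3G46640.3 donor: ggtggaaatgGTgcgtttgagtcaaatcct
shared acceptor: atatttgattgttgttacAGgttcttggtg

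AT3G46640.2 had 1.83, 2.09 and 1.47 FPKM in the cdc5 libraries, against 4.68, 4.31 and 3.30 FPKM in the Col-0 libraries. The genotypes did not overlap, and the log2 fold change of -0.86 (SE 0.16) passed the test (limma adjusted p = 0.014). AT3G46640.1 had 2.28, 1.10 and 2.09 FPKM in cdc5, against 2.53, 2.06 and 3.37 FPKM in Col-0. These libraries overlapped, and the log2 fold change of -0.38 (SE 0.24) did not pass the test (limma adjusted p = 0.28). AT3G46640.3 had 0.327, 0.653 and 0.625 FPKM in cdc5, or about 11, 23 and 17 fragments, while it was listed at 0 in Col-0 libraries 1 and 2 and at 0.0595 FPKM, about 2 fragments, in Col-0 library 3. It was below the filter, and no fold is given against so few fragments. In the fit without a filter it was called higher in cdc5 (limma adjusted p = 0.019). The authors' deposited table marks AT3G46640.2 as lower (q-value 3.4e-08) and AT3G46640.3 as higher (q-value 0.0030), the only 2 of the 22 transcripts that it marks, where it marks 12.2% of all transcripts.

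As a share of the LUX sum, AT3G46640.3 made up 7.35%, 17.0% and 14.9% in cdc5, against 0%, 0% and 0.884% in Col-0, with no overlap. AT3G46640.2 made up 41.2%, 54.3% and 35.1% in cdc5, against 64.9%, 67.7% and 49.0% in Col-0, and these shares overlapped. The test of isoform usage (limma's diffSplice) on AT3G46640.1 and AT3G46640.2 gave an adjusted p = 0.25. Without the filter, with all 3 transcripts, it gave an adjusted p = 0.0020. The last exon of AT3G46640.2 overlaps AT3G46650 on the opposite strand by 1507 bases. AT3G46650 was not analysed here, and the sources used here do not say whether fragments were assigned by strand.

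**Figure D2:**
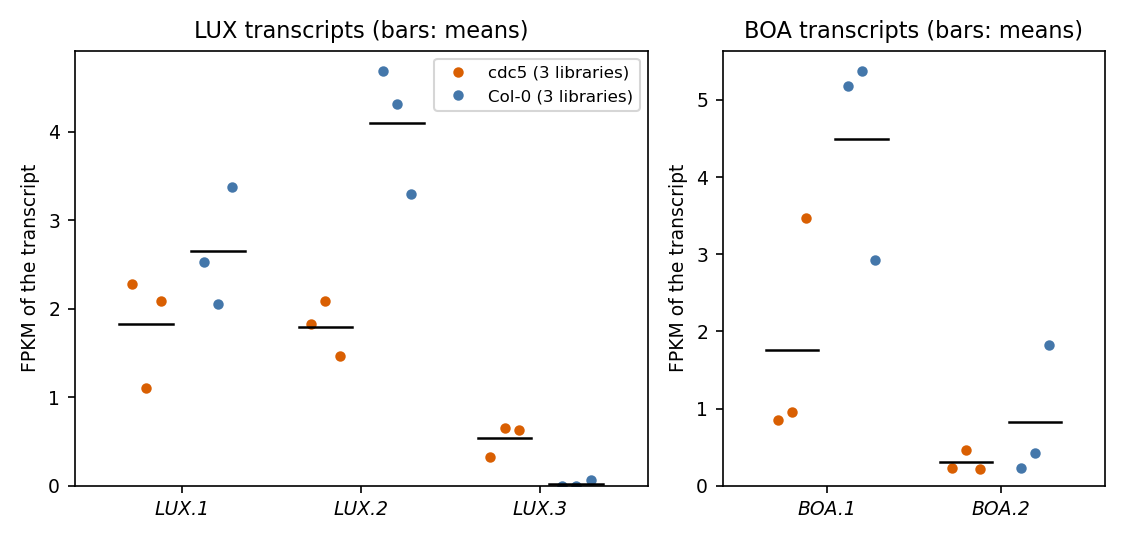
FPKM of each LUX (left) and BOA (right) transcript by library, with cdc5 (orange) left of Col-0 (blue) and group means as bars. The cdc5 libraries lie below the Col-0 libraries for LUX.2 and above them for LUX.3, and overlap them for LUX.1, BOA.1 and BOA.2.

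BOA (AT5G59570, chromosome 5, 24003888 to 24007844, plus strand), the closest relative of LUX, also encodes a MYB-type protein. Its level was 1.08, 1.42 and 3.69 FPKM in the cdc5 libraries, against 5.42, 5.80 and 4.75 FPKM in the Col-0 libraries. All cdc5 libraries were lower, but replicate 3 lay much closer to Col-0 than to the other two. Their log2 fold change was -1.14 (SE 0.32), with a limma adjusted p = 0.028. The call was lost when any single library other than cdc5 replicate 3 was left out (limma adjusted p from 0.057 to 0.095). Without cdc5 replicate 3 it was kept, with a log2 fold change of -1.49 (limma adjusted p = 5.6e-05).

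BOA has 2 listed transcripts with the same frame of 298 codons. AT5G59570.1 had 0.855, 0.954 and 3.47 FPKM in cdc5, against 5.18, 5.38 and 2.93 FPKM in Col-0. The genotypes overlapped here, because cdc5 replicate 3 was above Col-0 replicate 3, and the log2 fold change of -1.08 (SE 0.42) did not pass the test (limma adjusted p = 0.11). AT5G59570.2, which has an 882-base intron after the frame and a more distant 3′ end, had 0.229, 0.461 and 0.214 FPKM in cdc5, against 0.235, 0.424 and 1.83 FPKM in Col-0, and was below the filter. The low value of AT5G59570.1 in Col-0 replicate 3 thus went with a high value of AT5G59570.2 in the same library. UGT76E1, on the opposite strand, overlaps the BOA gene by 1896 bases and had a mean of 1.27 FPKM in cdc5 and 0.955 FPKM in Col-0.

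Over the 6 libraries, the 3 tested genes whose profile was nearest to that of BOA shared its intermediate value in cdc5 replicate 3. AT2G27730 had 47.5, 49.1 and 105 FPKM in cdc5, against 128, 131 and 124 FPKM in Col-0. Its root mean square distance from BOA was 0.092 on the log2 scale. AT2G36410 had 9.68, 10.2 and 19.5 FPKM in cdc5, against 20.6, 23.4 and 22.0 FPKM in Col-0 (distance 0.21), and AT5G10946 had 0.375, 0.212 and 1.27 FPKM in cdc5, against 2.27, 1.64 and 1.80 FPKM in Col-0 (distance 0.22). They were chosen for this likeness, so it is a description.

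ELF3 and ELF4 overlapped between the genotypes. ELF3 (AT2G25930) had 8.94, 8.87 and 9.09 FPKM in cdc5, against 9.85, 7.77 and 9.06 FPKM in Col-0. The cdc5 libraries lay inside the range of Col-0, and the log2 fold change of 0.02 (SE 0.081) had a limma adjusted p = 0.88. ELF4 (AT2G40080) was low, at 2.28, 2.06 and 1.67 FPKM in cdc5, about 22 to 38 fragments, against 2.62, 2.51 and 1.81 FPKM in Col-0, about 27 to 41 fragments. Its log2 fold change of -0.14 (SE 0.13) had a limma adjusted p = 0.39. Together with LUX and BOA, this gave 0 higher and 2 lower of 4 evening complex genes, with a median log2 fold change of -0.37. Of all tested genes, 33.3% were called higher and 22.4% lower, and no result about the group is read from so small a count.

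GI (AT1G22770), a large nuclear and cytosolic protein that stabilises ZTL, had 10.2, 10.3 and 10.1 FPKM in cdc5, against 10.5, 8.80 and 8.69 FPKM in Col-0. Col-0 replicate 1 was above all cdc5 libraries and the other two were below them. The log2 fold change of 0.12 (SE 0.076) had a limma adjusted p = 0.21. Without Col-0 replicate 1 it was 0.20 (limma adjusted p = 0.028), and it was slightly negative under cyclic loess scaling and under the adjustment for length and GC content.

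ZTL (AT5G57360), the F-box photoreceptor that targets TOC1 and PRR5, had 23.3, 24.1 and 22.6 FPKM in cdc5, against 21.7, 21.9 and 18.5 FPKM in Col-0. The cdc5 libraries were all higher by a narrow margin, and the log2 fold change of 0.17 (SE 0.068) did not pass the test (limma adjusted p = 0.062). LKP2 (AT2G18915), the third F-box protein of the family, had 7.84, 7.25 and 6.98 FPKM in cdc5, against 7.59, 7.44 and 7.64 FPKM in Col-0, and a log2 fold change of -0.04 (SE 0.065) that did not pass either (limma adjusted p = 0.66). A second annotated transcript of each of these genes was not analysed here.

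FKF1 (AT1G68050), which marks the CDF repressors of CO for degradation, was the lowest of the 10 genes. It had 0.499, 0.492 and 0.473 FPKM in the cdc5 libraries, against 0.782, 0.731 and 0.688 FPKM in the Col-0 libraries. The genotypes did not overlap, and the mean in cdc5 was 66.5% of that in Col-0, but the values rest on only about 20 to 27 fragments per library in cdc5 and about 30 to 40 in Col-0. It was below the filter. In the fit without a filter, which called 16.7% of 27947 genes lower, its log2 fold change of -0.22 (SE 0.070) passed (limma adjusted p = 0.040). Its single transcript holds the same values, and in the transcript fit without a filter the same change did not pass (SE 0.097, limma adjusted p = 0.20). The authors' deposited table gives it a fold of 0.665 and a q-value of 5.6e-04 and does not mark it.

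**Figure D3:**
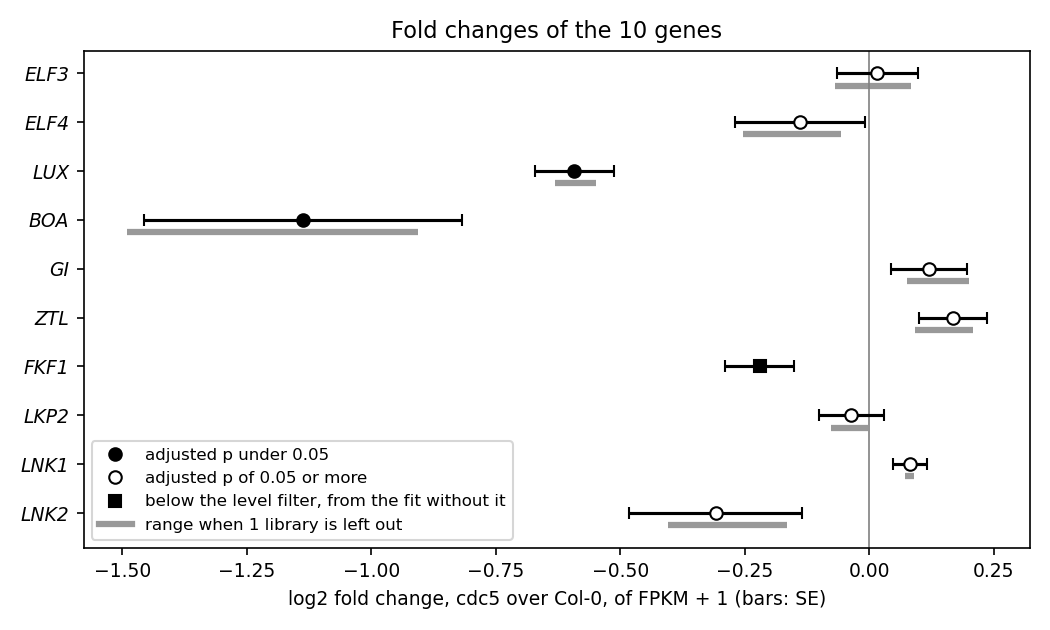
Log2 fold change of FPKM + 1, cdc5 over Col-0, with its standard error, for the 10 genes (filled: adjusted p under 0.05; square: FKF1, from the fit without the level filter; grey bar: range when 1 library is left out). LUX lies at -0.59 with a narrow range, BOA at -1.14 with a wide one from -1.49 to -0.91, and the other tested genes lie between -0.31 and 0.17.

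LNK1 (AT5G64170, chromosome 5, 25672466 to 25676823, minus strand) differed in its transcripts more than in its level. The sum was 56.1, 56.5 and 56.9 FPKM in cdc5, against 54.0, 53.4 and 52.6 FPKM in Col-0. All cdc5 libraries were higher, with a mean that was 106% of that in Col-0, and the log2 fold change of 0.08 (SE 0.034) did not pass the test (limma adjusted p = 0.065). Its sign changed under median scaling and under the length and GC adjustment.

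AT5G64170.1 joins the exons on both sides of a 130-base exon by a 980-base intron, and AT5G64170.2 keeps that exon (25675911 to 25676040). The exon holds 106 bases of leader and the first 24 coding bases of a frame of 616 codons, so AT5G64170.1 is annotated with a frame that is 50 codons shorter. The ends of the exon are shown because this exon separates the 2 main transcripts. They are from TAIR10.1 (RefSeq), minus strand, at chr5:25676031-25676060 and chr5:25675891-25675934. Capitals mark the AG before the exon in the first, and the start codon and the GT after the exon in the second.
LNK1 exon acceptor: tatttatatttcctatccAGaaccagaaat
LNK1 exon donor: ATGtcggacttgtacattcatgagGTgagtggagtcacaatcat

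AT5G64170.1, without the exon, had 34.9, 35.7 and 41.4 FPKM in cdc5, against 27.8, 30.9 and 29.6 FPKM in Col-0. It rose by 0.33 on the log2 scale (SE 0.077, limma adjusted p = 0.027), the only 1 of 18 tested transcripts to be called higher, where 17.8% of all tested transcripts were. That call was lost under 5 of 13 alternatives: median scaling, the replicate block, and without cdc5 replicate 2, Col-0 replicate 1 or Col-0 replicate 3 (adjusted p from 0.052 to 0.077). AT3G46640.2 of LUX was the only one called lower, where 13.2% were. AT5G64170.2, with the exon, had 20.8, 18.7 and 14.4 FPKM in cdc5, against 25.5, 22.5 and 22.0 FPKM in Col-0. The genotypes did not overlap, and the log2 fold change of -0.37 (SE 0.14) did not pass the test (limma adjusted p = 0.11). The authors' deposited table gives q-values of 0.0081 for AT5G64170.1 and 0.0098 for AT5G64170.2 and marks neither.

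The share of AT5G64170.1 in the LNK1 sum was 62.3%, 63.2% and 72.7% in cdc5, against 51.5%, 57.9% and 56.4% in Col-0. Every cdc5 library was above every Col-0 library, and the mean differed by 10.8 percentage points. The test of isoform usage was passed (limma's diffSplice, adjusted p = 0.016). LNK1 was the only one called of 3 genes here with at least 2 tested transcripts, where 25.5% of 5456 such genes were called. The call was lost without Col-0 replicate 1 (adjusted p = 0.076) and when AT5G64170.3 was added by dropping the filter (adjusted p = 0.17). AT5G64170.3, which carries a further 92-base intron, had 0.344, 2.095 and 1.09 FPKM in cdc5, against 0.681, 0 and 0.882 FPKM in Col-0.

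**Figure D4:**
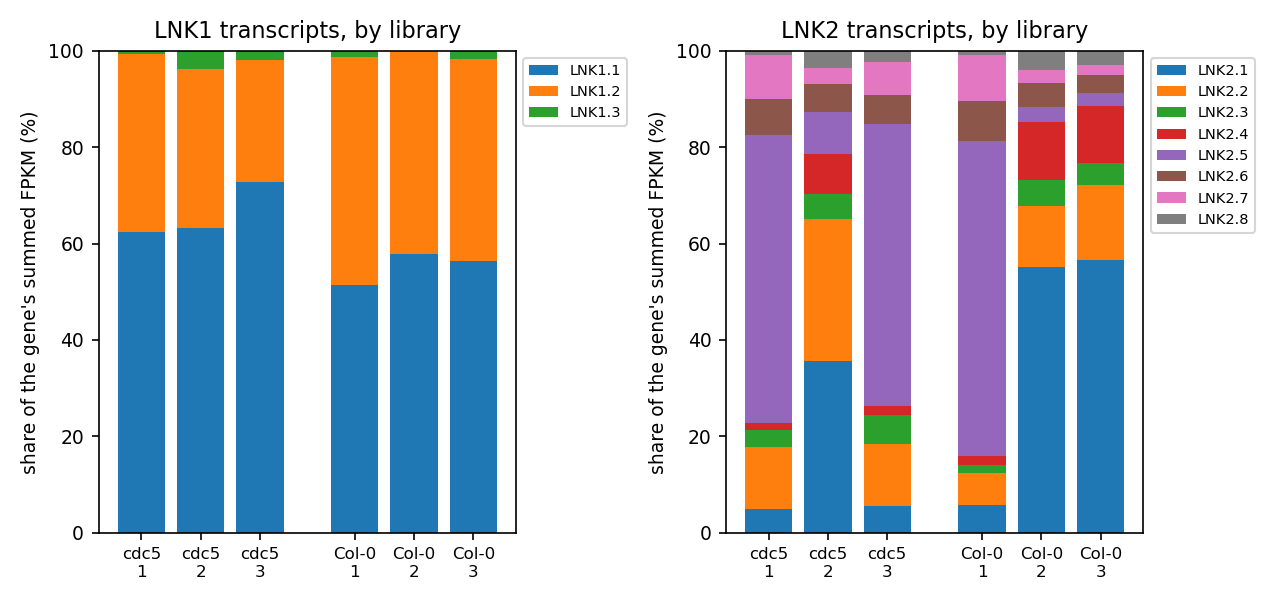
Share of each transcript in the summed FPKM of LNK1 (left) and LNK2 (right), in percent, by library, with cdc5 left of Col-0. LNK1.1 takes 62.3% to 72.7% in cdc5 and 51.5% to 57.9% in Col-0, while for LNK2 the leading transcript is LNK2.5 in cdc5 libraries 1 and 3 and Col-0 library 1 and LNK2.1 in the other three.

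LNK2 (AT3G54500, chromosome 3, 20175370 to 20179070, minus strand) was the most abundant of the 10 genes and had the most transcripts. Its sum was 94.8, 73.3 and 93.0 FPKM in cdc5, against 131, 93.8 and 100 FPKM in Col-0. The genotypes overlapped, and the log2 fold change of -0.31 (SE 0.17) did not pass the test (limma adjusted p = 0.20).

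Its 8 transcripts were divided differently between libraries of the same genotype. AT3G54500.5 had 56.6, 6.33 and 54.2 FPKM in cdc5, against 85.7, 2.95 and 2.70 FPKM in Col-0. AT3G54500.1 had 4.70, 26.1 and 5.08 FPKM in cdc5, against 7.54, 51.8 and 56.8 FPKM in Col-0. One of the pair was high wherever the other was low, in both genotypes, and their sum was 61.3, 32.4 and 59.3 FPKM in cdc5, against 93.2, 54.7 and 59.5 FPKM in Col-0. Their models differ by donors 3 bases apart, by a 136-base leader intron and by an additional last exon that AT3G54500.1 and AT3G54500.4 have. The 2 donors are shown because they overlap almost entirely (TAIR10.1, RefSeq, minus strand, chr3:20178141-20178170 and chr3:20178138-20178167, capitals as above).
AT3G54500.1 donor: tcaacaagagGTggtgcgtttctcttgaaa
AT3G54500.5 donor: acaagaggtgGTgcgtttctcttgaaacag

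Transcripts spliced at the leader intron made up 16.4%, 50.9% and 16.5% of the LNK2 sum in cdc5, against 18.0%, 73.7% and 73.5% in Col-0. By contrast, the 259-base intron of AT3G54500.6 and AT3G54500.8, which differs from the more common 222-base one at a single end, took 8.43%, 9.27% and 8.54% in cdc5, against 9.10%, 9.11% and 6.67% in Col-0, an even share in all libraries. None of the 8 transcripts passed the test, and isoform usage did not (limma's diffSplice, adjusted p = 0.46). Without Col-0 replicate 1 the usage test was passed (adjusted p = 0.0040). The shares of AT3G54500.1 and AT3G54500.5 followed the library and not the genotype, so no difference between the genotypes is read from them.

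In the 500 bases before each gene start, the evening element AAAATATCT, a site bound by CCA1, LHY and RVE8, was searched on both strands in 27443 promoters of protein-coding genes. It was found in LUX, BOA and FKF1, which were also the genes with lower libraries in cdc5, and in 4.44% of all promoters. The sites are shown from TAIR10.1 (RefSeq), plus strand, at chr3:17182979-17183008, chr5:24003835-24003864, chr1:25508256-25508285 and chr1:25508443-25508472. They lie 53, 43, 373 and 186 bases before the start, and capitals mark the element or, for BOA and the second site of FKF1, its reverse complement.
LUX: tagaagatctAAAATATCTagctaactcgt
BOA: tgcgggtaaaAGATATTTTagattatctag
FKF1 site 1: gcgtttcacaAAAATATCTattatttgacc
FKF1 site 2: tgagtaggctAGATATTTTctcggaatatc

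With 1000 bases, GI and ELF4 held the element too, and 7.24% of promoters did. Of the 870 tested genes with the element in 500 bases, 25.5% were called lower and 31.4% higher, with a median log2 fold change of 0.03. Of all tested genes with a promoter, 22.7% were called lower and 33.4% higher, with a median of 0.06. Whether the element has a part in the lower values of LUX, BOA and FKF1 was not tested. The LUX-binding letters GATACG or GATTCG occurred in 6 of the 10 genes (ELF3, ELF4, LUX, LKP2, LNK1 and LNK2) and in 22.6% of all promoters. The G-box CACGTG occurred in LUX and BOA and in 9.35% of promoters, and the CCA1-binding letters AAAAATCT in LKP2 and in 12.5%.

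Of 7 tested close relatives of the 10 genes, LNK3 rose and 5 fell, where 33.3% of all tested genes were called higher and 22.4% lower. Their median log2 fold change was -0.30, against 0.06 over all tested genes. LNK3 had 106, 103 and 105 FPKM in cdc5, against 71.4, 74.2 and 74.2 FPKM in Col-0 (log2 fold change 0.51, SE 0.033, limma adjusted p = 5.4e-06). ELF4-L3 had 6.90, 7.54 and 7.95 FPKM in cdc5, against 11.0, 13.0 and 14.0 FPKM in Col-0 (log2 fold change -0.68, SE 0.091, limma adjusted p = 2.8e-04). EEC, a relative of ELF3, fell by 0.48 and ELF4-L2 fell by 0.30 on the log2 scale, and ELF4-L1 and ELF4-L4 fell too. ELF4-L2 and ELF4-L4 no longer passed the test after the adjustment for length and GC content.

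For the other clock genes and the output genes too, the background was 33.3% of all tested genes called higher and 22.4% lower. Among 10 other tested clock genes, 4 rose and 3 fell, with a median of 0.01. Of those that rose, RVE6 lost its call under cyclic loess and median scaling, and RVE8 under median scaling and the length and GC adjustment. The morning repressors CCA1 and LHY rose: LHY had 83.2, 81.4 and 97.1 FPKM in cdc5, against 43.0, 43.9 and 43.7 FPKM in Col-0 (log2 fold change 0.98, SE 0.063, limma adjusted p = 6.0e-06), and CCA1 rose by 0.59. CHE, a TCP protein that represses CCA1, fell by 0.61, and PRR7, a repressor of CCA1 and LHY, fell by 0.18. The third that fell was TOC1, by 0.22 (limma adjusted p = 0.036). PRR9 (log2 fold change -0.10, limma adjusted p = 0.37), PRR5 (0.10, adjusted p = 0.51) and RVE4 (-0.08, adjusted p = 0.61) did not pass the test. PRR3 was below the filter, at 0.836, 1.33 and 1.25 FPKM in cdc5, against 0.592, 0.589 and 0.485 FPKM in Col-0, without overlap. Of 7 tested output genes of the members, PIF5 rose and CDF1, CDF5 and FT fell, with a median of 0.07. FT, the mobile flowering signal, had 6.90, 6.15 and 7.20 FPKM in cdc5, against 11.0, 11.0 and 11.9 FPKM in Col-0 (log2 fold change -0.67, SE 0.071, limma adjusted p = 8.2e-05), while PIF4, a target of the evening complex, had a log2 fold change of 0.07 and did not pass the test.

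Of 6 protein partners, PHYB and COP1 rose and ASK2, an adaptor of F-box proteins, fell, with a median of 0.07. PHYB, a red-light photoreceptor that binds ELF3, had 35.0, 34.1 and 18.9 FPKM in cdc5, against 14.5, 13.8 and 11.2 FPKM in Col-0 (log2 fold change 1.05, SE 0.28, limma adjusted p = 0.031), and its cdc5 replicate 3 again lay nearest to Col-0. PIF5 and COP1 no longer passed the test under cyclic loess or median scaling. COP1 did not pass under the length and GC adjustment either (log2 fold change 0.005, limma adjusted p = 0.93). ASK1, not called here, was called lower under median scaling (-0.15, limma adjusted p = 0.013). CUL1, not called here, was called higher under cyclic loess scaling and lower under the length and GC adjustment. For the partners and for the splicing factors that follow, the background was 33.3% of all tested genes called higher and 22.4% lower. Of 6 splicing factors known to act on clock transcripts, GEMIN2, PRMT5 and SKIP rose and none fell, with a median of 0.16. Under median scaling the median was 0.067 and LSM4 was called lower (-0.20, limma adjusted p = 0.0052). GEMIN2, an assembly factor of spliceosomal snRNPs, had 13.7, 12.7 and 11.6 FPKM in cdc5, against 8.89, 8.08 and 7.41 FPKM in Col-0 (log2 fold change 0.58, SE 0.081, limma adjusted p = 3.7e-04).

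**Figure D5:**
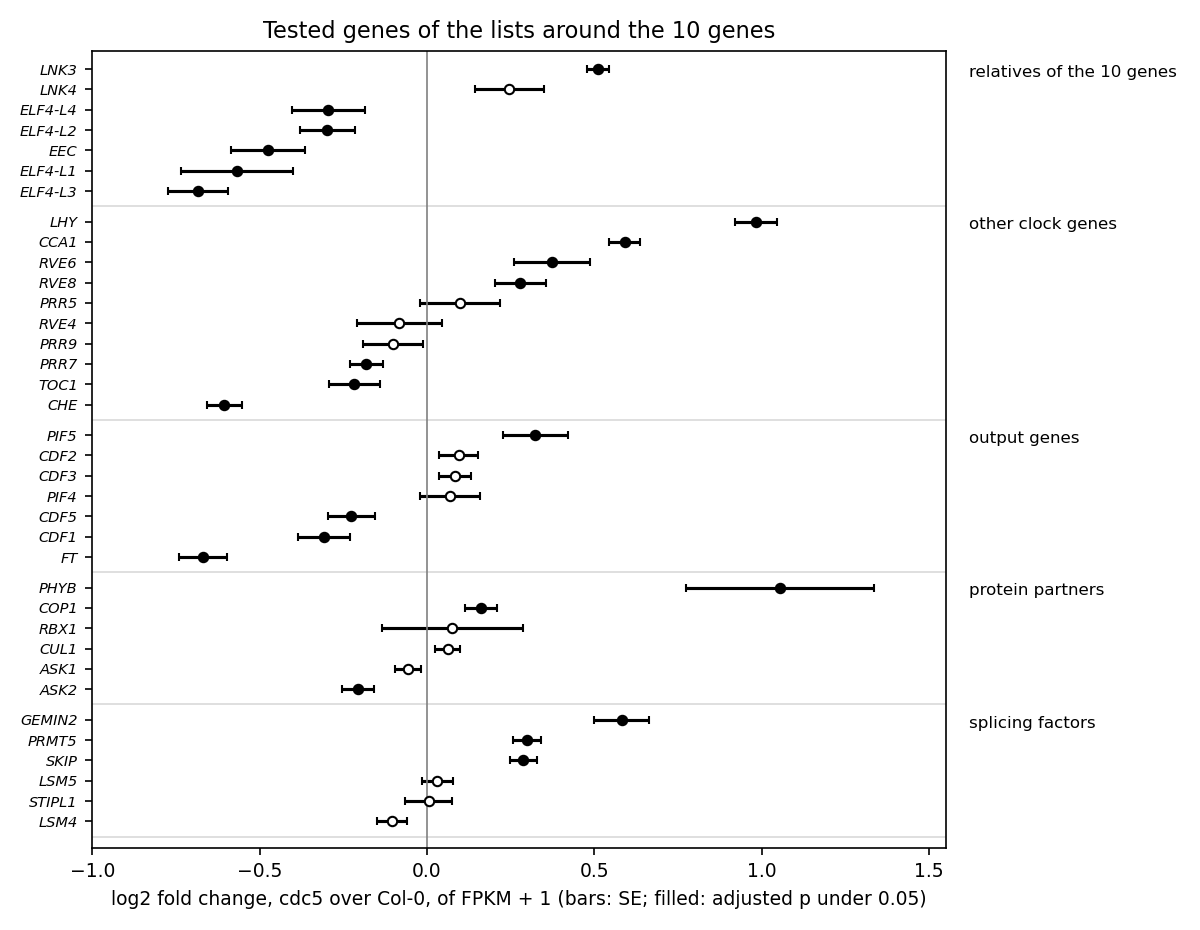
Log2 fold change of FPKM + 1, cdc5 over Col-0, with its standard error, for each tested gene of 5 lists around the 10 genes (filled: adjusted p under 0.05). LHY at 0.98 and CCA1 at 0.59 lie highest among the clock genes and CHE at -0.61 lowest, while LNK3 is the only relative called higher.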

How the data were processed

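The authors deposited 1 table with an FPKM value per transcript and library, together with a fold (mean FPKM of cdc5 divided by that of Col-0), its log2 value, and a p-value and q-value from a test that the table does not name. The submitters' processing notes list StringTie 1.3.4d, HISAT2 2.0.4, cutadapt 1.9, edgeR and DESeq2, without stated roles, and a mouse genome build, which cannot be that of this plant table. Per the labels' protocols, oligo(dT)-selected RNA was made into dUTP libraries and sequenced as pairs. Of the table's transcripts, 98.3% had the same span and length in TAIR10.1, so sequences and frames were read from that genome and its RefSeq annotation.

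FPKM were summed per gene and compared with limma 3.58.1 (R 4.3.3) on log2(FPKM + 1), with robust moderation and an intensity trend, over all genes or transcripts that averaged 1 FPKM or more. Isoform usage was tested with diffSplice (Simes p per gene). P-values were Benjamini-Hochberg adjusted over all features. An exact permutation test of 1 gene, 3 against 3, reaches 0.10 at best, and every p reflects no more than the spread among these libraries, which may be technical. The fits were also run on simulated data with independent noise and few changed features, unlike these data, so nothing is concluded from that run. Other steps used pandas 2.3.3, numpy 2.4.6 and matplotlib 3.10.9 under Python 3.11.15.

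The table holds no counts, and depth was inferred from the spacing of low FPKM values, searched between 15 and 30 M fragments. These values were within 0.1 of whole multiples of the step in 61.0% to 64.5% of cases per library, too few to recover counts, and multiples of the step could also describe them. Fragment numbers printed with a value are therefore approximate. A level of 3 fragments over 1 kilobase corresponds to 0.117 to 0.156 FPKM.

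The members and all lists were chosen with earlier results of these data known. Named are all 10 members and their transcripts, up to 4 genes of each other list by adjusted p, and the 3 genes nearest in profile to the called member with the largest change. Other genes of the lists that are named were picked after their values were seen.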

Additional observations from a re-analysis of the deposited data

How the results depend on the processing

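Of the gene-level results, the fall of LUX kept its direction and its call under all alternatives (-0.79 to -0.55). The fall of BOA kept its direction and lost its call with a replicate block (-1.14, limma adjusted p = 0.056), when a gene's level was summed over transcripts of at least 1 FPKM (-1.08, adjusted p = 0.071) and when any single library other than cdc5 replicate 3 was left out (-1.20 to -0.91), while it was kept without cdc5 replicate 3 (-1.49). With a filter at 5 FPKM, BOA, ELF4 and FKF1 gave no value. Small changes that were not called became so in places: ZTL with a replicate block (0.17, adjusted p = 0.040) and without Col-0 replicate 2 (0.092 to 0.21 over the left-out libraries), LNK2 with a replicate block (-0.31, adjusted p = 0.016), GI without Col-0 replicate 1 (0.075 to 0.20) and LNK1 under cyclic loess scaling (0.12, adjusted p = 0.018). Signs of uncalled changes turned for ELF3 under cyclic loess scaling (-0.11), median scaling (-0.076), the length and GC adjustment (-0.13) and without Col-0 replicate 2 (-0.068 to 0.085). They also turned for GI under cyclic loess scaling (-0.0013) and the length and GC adjustment (-0.017), and for LNK1 under median scaling (-0.010) and the length and GC adjustment (-0.075). The single ELF3 transcript AT2G25930.1 in the transcript fit gave -0.055 under cyclic loess scaling, -0.063 under median scaling and -0.068 to 0.085 over the left-out libraries. Among uncalled LNK2 transcripts, leaving out single libraries gave -0.20 to 0.27 for AT3G54500.3, -0.34 to 0.32 for AT3G54500.6, -0.13 to 0.92 for AT3G54500.7 and -0.62 to 0.02 for AT3G54500.8.

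In isoform usage, the log2 change of AT5G64170.1 of LNK1 against its other transcripts lost its call without a filter (0.27, limma adjusted p = 0.17) and ranged from 0.49 to 0.85 over the left-out libraries. That of AT3G46640.2 of LUX passed without a filter (-0.96, adjusted p = 0.0020), and that of AT3G54500.1 of LNK2 ranged from -2.73 to -1.10. Over the whole table, 5450 transcripts were called with a replicate block, against 8518 without it, and 2193 genes for isoform usage without a filter and 479 with a filter at 5 FPKM, against 1390. Same-numbered libraries of the genotypes deviated together only weakly (correlations of 0.043, 0.059 and 0.0038 across genes) and not every library correlated best with its own number, so the numbers do not show a pairing. The share of higher among called genes was 59.8%, 50.3% under cyclic loess scaling, 43.5% under median scaling and 52.6% under the length and GC adjustment. The cause of each of these differences was not tested.

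Values under about 1 FPKM, such as those of FKF1, AT3G46640.3 and AT5G59570.2, rest on few fragments. How the estimates were divided between overlapping transcript models, and whether strand was used, no source used here says. No hour of harvest is labelled, which limits any reading of genes that cycle over the day.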
